A study of Homo sapiens with 16 samples.

Results

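The genes described here are 10 enzymes that build glycosaminoglycans, the long sulfated sugar chains that proteoglycans carry at the cell surface and in the extracellular matrix. They were taken by symbol from a fixed list, and 10 of the 8704 genes in the deposited tables belong to it. CHPF was selected on measured values, its low translation efficiency after auxin treatment in these data, so its values in the control lentivirus cells describe how it was chosen and are no independent evidence. The others were listed as its pathway neighbours.

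All cells were HCT-116, a human colorectal carcinoma line, and every group carried the rice auxin receptor OsTIR1 under a CMV promoter and an mAID degron tag on the endogenous DDX3X, an RNA helicase that acts in translation initiation. The line is a single clone. Auxin (indole-3-acetic acid, IAA, 500 µM for 48 h) triggers degradation of the tagged protein. The groups were lentiDDX3Y cells with IAA and lentiDDX3X cells with IAA, in which a FLAG-tagged, partly codon-optimized helicase replaced the degraded one, then lentiCTRL cells (control lentivirus) with IAA and lentiCTRL cells with DMSO. Each group had 2 replicates, and each replicate gave 1 ribosome profiling and 1 rRNA-depleted RNA-seq library, 16 libraries in all.

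Ribosome profiling reads the stretches of RNA that ribosomes shield from nuclease (footprints). For each gene the authors deposited a base mean, which is the mean normalized count over coding sequences, as 1 value for footprints and 1 for RNA in each of 2 tables. The first table pools the lentiDDX3Y and lentiDDX3X libraries (complemented cells) and the other pools the IAA and DMSO libraries of the lentiCTRL cells (control lentivirus cells), with 4 libraries per assay in each. The values are therefore the authors' means, with no value per library and no error between replicates, and IAA cannot be set against DMSO, nor DDX3Y against DDX3X, from them. The tables share no library and were normalized separately. They list 7433 genes for complemented cells and 8657 for control lentivirus cells, with median footprint base means of 52.7 and 34.1 and median RNA base means of 1084 and 868. DDX3Y was listed in complemented cells, at an RNA base mean of 3526, and was not listed in control lentivirus cells. DDX3X had RNA base means of 10518 in complemented and 6774 in control lentivirus cells. Of 10 markers of colorectal epithelium 7 were listed in either table, VIL1, CDX1 and LGALS4 being the exceptions. Of 16 markers of fibroblasts, leukocytes and endothelium none was listed in complemented cells and COL1A1 alone in control lentivirus cells, at an RNA base mean of 506.

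Glycosaminoglycan synthesis begins with a linker of 4 sugars on a serine of the core protein. XYLT2 adds the xylose, B4GALT7 the first galactose and B3GAT3 the glucuronic acid that completes it. EXTL3 then adds the sugar that commits the chain to heparan sulfate, the EXT1 and EXT2 complex polymerizes it, and NDST1 removes acetyl groups and adds sulfate to it. On the chondroitin branch CHSY1 is a chondroitin synthase, CHPF is the chondroitin polymerizing factor that works with the synthases, and CHPF2 is a relative of CHPF with glucuronyltransferase activity. Most of these enzymes are membrane proteins of the Golgi.

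The start codons of 4 members are shown because footprints on the coding sequence begin there. They are heparan and chondroitin enzymes whose footprints per RNA, given below, were near the median gene (EXT2), below it (CHPF) or far below it (CHSY1 and NDST1). Each line gives the 12 bases before the start codon, the start codon in capitals and the 9 bases after it, from the canonical transcript in GENCODE v44 (GRCh38).
EXT2: gtctgtgtcattATGtgtgcgtcg
CHPF: ggtccgggcgccATGcgggcatcg
CHSY1: agcggcgcgggcATGgccgcgcgc
NDST1: tcggaggccaggATGcctgccctg
The start codons lie at chr11:44107713-44107715 on the plus strand for EXT2, chr2:219543536-219543538 on the minus strand for CHPF, chr15:101251454-101251456 on the minus strand for CHSY1 and chr5:150521255-150521257 on the plus strand for NDST1. A purine stood 3 bases before the start codon in 8 of the 10 members and in 88.3% of all genes. The exceptions were EXT1 and EXTL3, which are not among the 4 shown.

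Of the 10 enzymes, 7 were listed in complemented cells, 9 in control lentivirus cells and 6 in both. CHPF2, EXT1 and NDST1 were listed only in control lentivirus cells, with footprint base means of 12.5, 11.8 and 10.2. CHSY1 was listed only in complemented cells, with a footprint base mean of 22.5. Every listed gene had a footprint base mean above 20 in complemented cells and of at least 10 in control lentivirus cells, so a gene with fewer footprints could not be listed. Absence from a table is therefore no measure of a difference, and the counts below cover listed members only.

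CHPF had far more RNA than any other listed member. Its RNA base mean was 19390.4 in complemented cells and 11698 in control lentivirus cells. Per kb of coding sequence, the scale on which genes can be compared, this was 8340 and 5031, above 97.3% and 96.4% of genes. The next member per kb was CHSY1 at 785 in complemented cells and EXT1 at 733 in control lentivirus cells, so the RNA level of CHPF per kb was 10.6 times that of CHSY1 and 6.86 times that of EXT1 in the same tables. Its footprint base mean was 641 in complemented cells and 187 in control lentivirus cells, which per kb is 276 and 80.4. CHPF thus carried 65.5% of the footprints per kb summed over the 7 members listed in complemented cells, and 40.1% of those summed over the 9 members listed in control lentivirus cells.

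The other members had RNA levels per kb above 25.7% to 53.8% of genes in complemented cells and above 11.2% to 58.8% of genes in control lentivirus cells. Their RNA base means per kb ran from 449 to 785 in complemented cells, against a median of 729 over all genes, and from 221 to 733 in control lentivirus cells, against a median of 602. The lowest were B4GALT7 in complemented cells and CHPF2 in control lentivirus cells. Linker and heparan enzymes overlapped on this scale in both tables, whereas CHSY1 lay above them in complemented cells and CHPF2 below them in control lentivirus cells. In complemented cells XYLT2, B4GALT7 and B3GAT3 had 632, 449 and 691 per kb, EXT2 and EXTL3 had 702 and 678, and CHSY1 had 785. In control lentivirus cells the linker enzymes lay between 470 and 568, the 4 heparan enzymes between 466 and 733, and CHPF2 at 221.

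**Figure D1:**
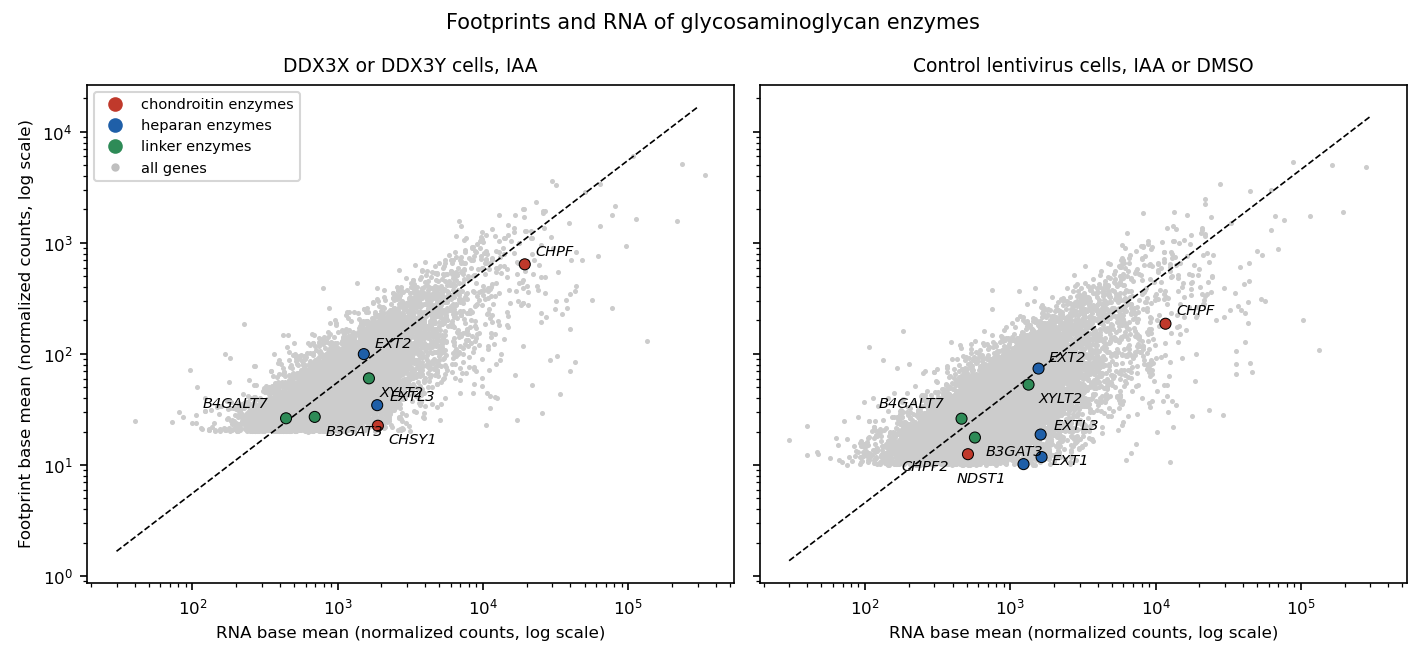
Footprint base mean (y axis, log scale) against RNA base mean (x axis, log scale), both in normalized counts not divided by length, for complemented cells (left) and control lentivirus cells (right). Each point is a gene, coloured points are the enzymes, and the dashed line is the median ratio of all genes in that table; CHPF stands far to the right at RNA base means of 19390.4 and 11698, and EXT1 and NDST1 lie near the lower edge of the control lentivirus table, at footprint base means of 11.8 and 10.2.

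Footprints per RNA, the footprint base mean over the RNA base mean of the same gene, measure how densely ribosomes covered the coding sequence of a message. Both counts grow with coding length, so the ratio is no number of ribosomes per message. Since the assays have different depths, the ratio is given as a log2 value relative to the median gene of its table, which had 55.6 footprints per 1000 RNA reads in complemented cells and 45.7 in control lentivirus cells. The middle 50% of genes ran from -0.61 to 0.50 in complemented cells and from -0.76 to 0.60 in control lentivirus cells. Of the listed members, 5 of 7 were below the median gene in complemented cells and 7 of 9 in control lentivirus cells. Their median was -0.60 and -0.90, and without CHPF -0.55 and -0.73. No test was possible on pooled values, and the counts are a description.

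The 3 linker enzymes lay within the middle 50% of genes in both tables. XYLT2 had -0.60 in complemented cells and -0.21 in control lentivirus cells, B4GALT7 had 0.10 and 0.31, and B3GAT3 had -0.51 and -0.56. In both tables B4GALT7 was the highest of the linker enzymes, above 54.8% of all genes in complemented cells and 62.7% in control lentivirus cells.

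The heparan enzymes were split. EXT2 had 0.24 in complemented cells and 0.04 in control lentivirus cells, near the median gene in both. Its partner EXT1, with an RNA level per kb of 733 against 726 for EXT2 in the same control lentivirus cells, had -2.67, a value lower than that of all but 1.46% of genes. EXT1 had 7.18 footprints per 1000 RNA reads there and EXT2 had 47.2. NDST1 lay beside EXT1 at -2.47, and EXTL3 had -1.59 in complemented cells and -1.98 in control lentivirus cells. On the deposited scale, 4 libraries of control lentivirus cells hold about 47.1 footprints of EXT1 and 40.7 of NDST1, if their size factors are near 1, which gives a counting error of 0.21 and 0.23 on the log2 scale. The gap between EXT1 and EXT2 is larger than that counting error, and that between EXT1 and NDST1 is not. The spread between replicates is not known for either.

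All 3 chondroitin enzymes were below the median gene where they were listed. CHSY1 had -2.22 in complemented cells, lower than all but 1.52% of genes, with 11.9 footprints per 1000 RNA reads and a counting error of 0.15. CHPF2 had -0.90 in control lentivirus cells, with a counting error of 0.21. CHPF had -0.75 in complemented cells and -1.52 in control lentivirus cells, which is 0.595 and 0.349 times the ratio of the median gene. In complemented cells the footprints per RNA of CHPF were thus 2.77 times those of CHSY1 and 0.502 times those of EXT2. In control lentivirus cells they were 2.23 times those of EXT1 and 0.339 times those of EXT2.

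Footprints per RNA were lower in longer and in more abundant messages over all genes, with Spearman coefficients of -0.59 and -0.54 for coding length and -0.42 and -0.41 for RNA base mean in complemented and control lentivirus cells (across genes, which are not independent, and the RNA base mean is also the denominator of the ratio). Of the 10 enzymes, 8 have coding sequences longer than the median gene. Against genes in the same decile of coding length, a comparison chosen after the values were seen, EXT1 had -2.32 and NDST1 -1.88 in control lentivirus cells, CHSY1 had -1.93 in complemented cells, and CHPF had -0.46 in complemented and -1.16 in control lentivirus cells. EXTL3 had -1.05 in complemented and -1.38 in control lentivirus cells, and CHPF2 had -0.55 in the latter. EXT2 lay above the middle of such genes, at 0.53 and 0.40. Of the linker enzymes, B3GAT3 had -0.70 and -0.77, above 16.2% and 19.4% of such genes. XYLT2 had -0.31 and 0.15, and B4GALT7 had -0.09 and 0.10. Among genes in the same decile of RNA level CHPF was nearer the middle, above 44.1% of them in complemented cells and 30.5% in control lentivirus cells, while EXT1 was above 1.16% and NDST1 above 0.693%.

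**Figure D2:**
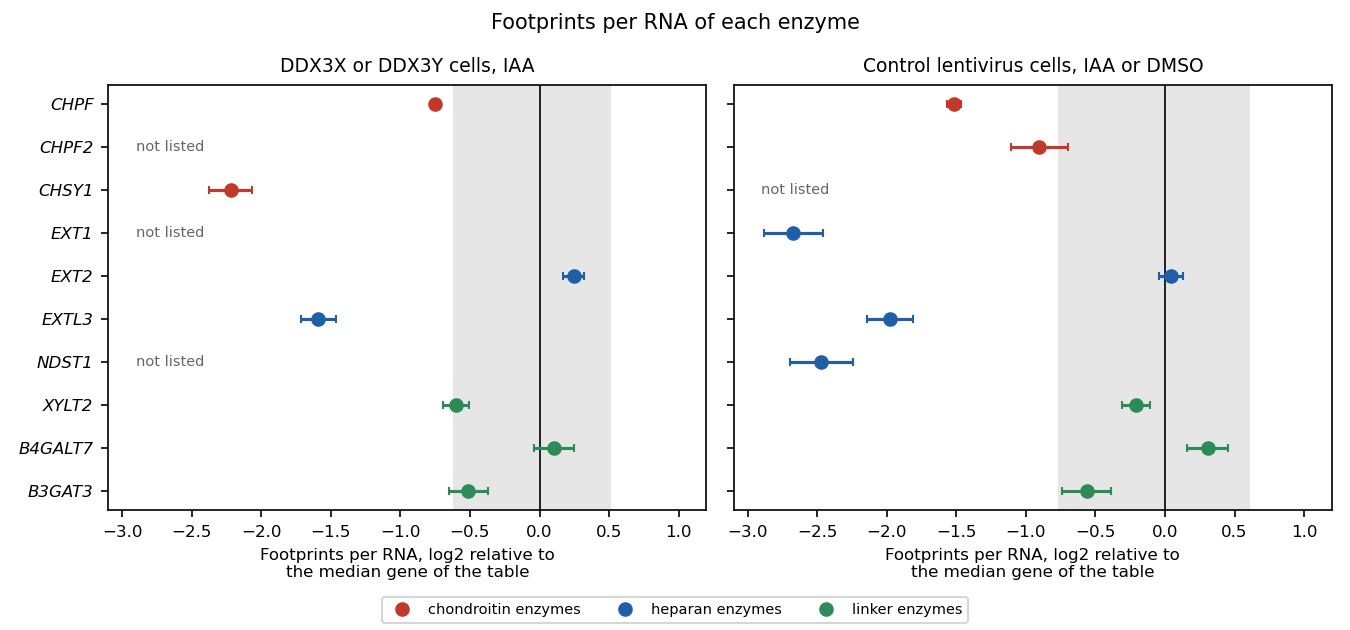
Footprints per RNA of each enzyme (x axis, log2 relative to the median gene of the table at 0) for complemented cells (left) and control lentivirus cells (right), with the middle 50% of all genes shaded. Bars are the approximate counting error alone (1 SE), as there are no replicate values; EXT1, NDST1 and EXTL3 lie from -2.67 to -1.98 in control lentivirus cells, whereas EXT2 and the 3 linker enzymes lie between -0.56 and 0.31.

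The 6 enzymes listed in both tables were set side by side after removing the median difference of the 7386 shared genes, since normalization was separate (complemented minus control lentivirus, 0.12 for RNA, 0.36 for footprints and 0.22 for footprints per RNA on the log2 scale). The tables differ in the lentivirus, so that the complemented cells had a replacement helicase after IAA and the lentiCTRL cells had none, and the control lentivirus table also pools DMSO libraries, which kept the tagged DDX3X. The complemented cells had also been isolated by repeated sorting for a fluorescent marker, and the paper does not describe how the lentiCTRL cells were obtained. The parts of these in a difference cannot be told apart. Of the 6, CHPF differed most. Its footprint base mean was 2.66 times as high in complemented as in control lentivirus cells relative to the shared genes (a centred log2 difference of 1.41). Its RNA differed by 0.61 (1.53 times) and its footprints per RNA by 0.83 (1.78 times). The control lentivirus libraries include those after IAA in which CHPF was picked for a low translation efficiency, so its difference uses values that chose the gene and is given as a description only.

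The other 5 enzymes differed less between the tables than CHPF did. The centred differences in footprints per RNA were 0.45 for EXTL3, 0.26 for EXT2, 0.12 for B3GAT3, -0.14 for B4GALT7 and -0.33 for XYLT2, with robust SDs of 0.25 to 0.35 among the 500 shared genes nearest in footprint level. The differences of EXTL3, EXT2 and XYLT2 exceeded their robust SDs of 0.35, 0.25 and 0.28, and those of B3GAT3 and B4GALT7 did not. From 20% (EXTL3) to 72.4% (B3GAT3) of those genes differed by more. In RNA these 5 enzymes differed by -0.19 to 0.18, and in footprints by -0.35 (B4GALT7) to 0.51 (EXTL3). Over all shared genes the log2 ratio of footprints to RNA had a Pearson coefficient of 0.955 between the tables, across genes of which each table is 1 pooled measurement.

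**Figure D3:**
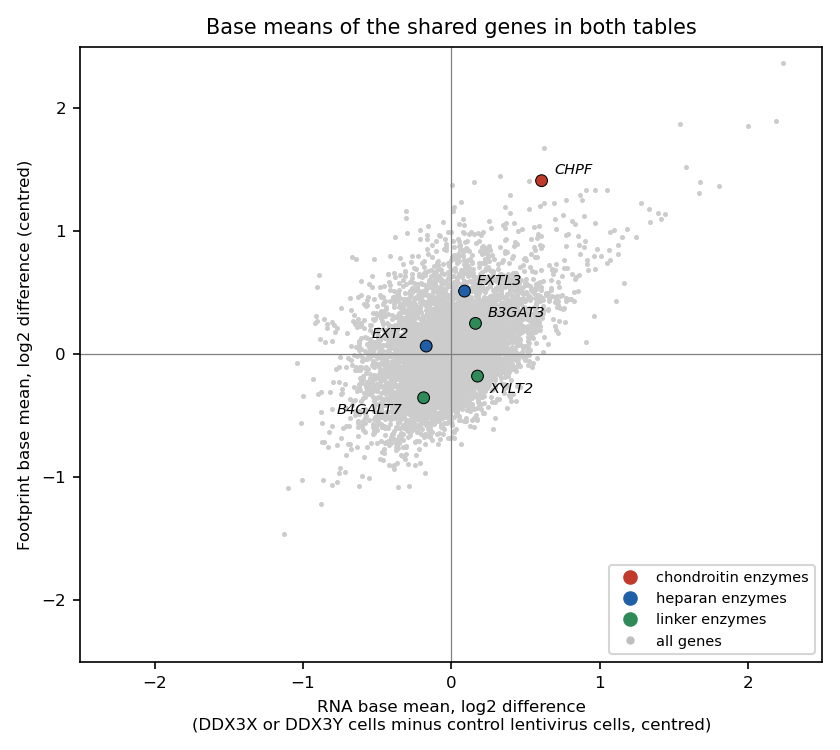
Difference in footprint base mean (y axis) against difference in RNA base mean (x axis), both log2, complemented minus control lentivirus cells, centred on the median of the 7386 shared genes (grey; 1 gene falls outside the axes). CHPF stands apart from the other 5 enzymes at 0.61 for RNA and 1.41 for footprints, while these lie between -0.19 and 0.18 for RNA and between -0.35 and 0.51 for footprints.

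The 5′ UTRs of the members, in the canonical transcripts of GENCODE v44, ranged from 15 nt in XYLT2 to 1529 nt in CHPF2, with a median of 122 nt over all genes. The linker enzymes had the shortest, at 15 nt in XYLT2, 39 nt in B3GAT3 and 79 nt in B4GALT7. EXT2 and CHPF followed at 205 and 271 nt. NDST1, CHSY1, EXTL3, EXT1 and CHPF2 had 483, 592, 728, 780 and 1529 nt, longer than 94.0% to 99.9% of genes. The HCT-116 cells may use other start sites, and the annotated length is no measurement in these libraries. The 5 members with a 5′ UTR above 400 nt, a limit chosen after the values were seen, had footprints per RNA of -2.22 to -1.59 in complemented cells (2 members) and -2.67 to -0.90 in control lentivirus cells (4 members). The 5 with shorter ones had -0.75 to 0.24 in complemented and -1.52 to 0.31 in control lentivirus cells. In complemented cells these ranges did not overlap, and in control lentivirus cells CHPF, at -1.52, lay below CHPF2. The same direction held over all genes, with medians of -0.83 and -1.06 above 400 nt against 0.07 and 0.08 at or below it, so the members are no exception. Coding length was not matched here. The 5 members with the longer 5′ UTRs have coding sequences of 2238 to 2757 nt. Of the other 5, B4GALT7 and B3GAT3 have 981 and 1005 nt, and EXT2, CHPF and XYLT2 have 2154, 2325 and 2595 nt.

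**Figure D4:**
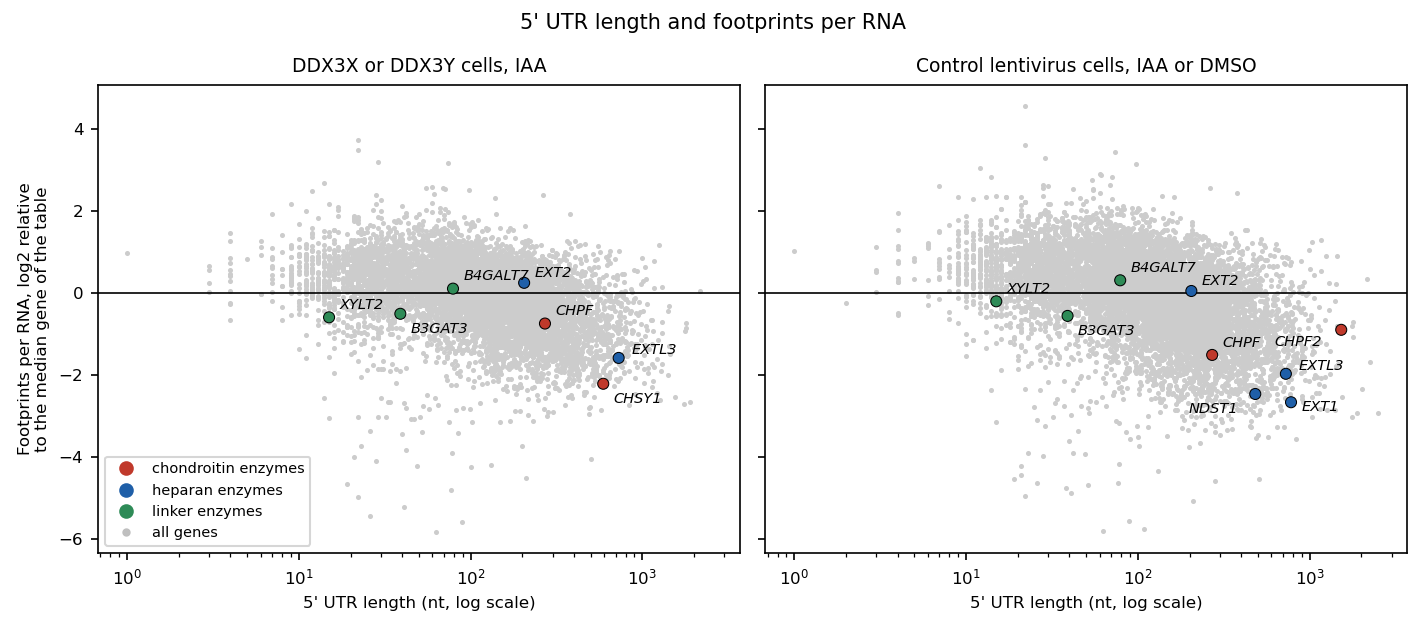
Footprints per RNA (y axis, log2 relative to the median gene) against the annotated 5′ UTR length (x axis, nt, log scale) in complemented cells (left) and control lentivirus cells (right), with all genes in grey. The linker enzymes, with 15 to 79 nt, lie between -0.60 and 0.31, and the enzymes with 483 nt or more lie at -0.90 or below, CHPF2 with 1529 nt being the highest of them.

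The 5 members with a 5′ UTR above 400 nt had 11 (EXTL3), 10 (CHPF2), 7 (EXT1), 4 (CHSY1) and 2 (NDST1) upstream ATG triplets. EXT2 and B4GALT7 had 1 each, and CHPF, XYLT2 and B3GAT3 had none. A longer 5′ UTR has more room for such triplets, and the counts were not divided by length. B4GALT7 had its 1 in 79 nt, and NDST1 its 2 in 483 nt. At least 1 was found in 7 of the 10 members and in 34.7% of all genes, without matching for 5′ UTR length. The GC content of the 5′ UTR was 77.5% in CHPF and 80.6% in CHSY1, above 82.6% and 91.1% of genes. It was highest in the linker enzymes B3GAT3 (89.7%) and B4GALT7 (84.8%), with footprints per RNA of -0.56 and 0.31 in control lentivirus cells, and lowest in EXTL3 (51.6%) and EXT1 (60.5%), with -1.98 and -2.67 there. Within the members GC content and footprints per RNA had a Spearman coefficient of 0.14 over 7 members in complemented and 0.65 over 9 in control lentivirus cells, while over all genes it was -0.11 and -0.19. The coding sequence of CHPF had a GC content of 67.2%, above 96.2% of genes, whereas EXT1 and EXT2 had 49.7% and 49.8%. The coding sequences of 9 members are overlapped by no exon of another gene, and 5.09% of that of CHPF2 is overlapped by the microRNA gene MIR671 on the same strand.

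The rest of the pathway was described from a list of 95 genes that includes the members, of which 49 were listed in complemented and 56 in control lentivirus cells. No hyaluronan synthase of 3 was listed. Counting the non-members, 22 of 42 were below the median gene in footprints per RNA in complemented cells and 25 of 47 in control lentivirus cells, which is about an even split. Unlike the members, these genes were not set against genes of the same coding length, with which footprints per RNA fell. Of the other linker genes, FAM20B, the xylose kinase, had -1.97 in control lentivirus cells and PXYLP1, which removes that phosphate, had -0.59.

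Among the other chondroitin and heparan genes values ran on both sides of 0. DSE, the dermatan sulfate epimerase, had -1.97 in complemented and -2.41 in control lentivirus cells, close to CHSY1. CHST14, the dermatan 4-O-sulfotransferase, had 0.59 and 0.64, with RNA base means per kb of 294 and 211. HS6ST2, a heparan 6-O-sulfotransferase, had 0.64 and 0.68. EXTL2 had 0.08 in control lentivirus cells, at an RNA base mean per kb of 282.

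Of 10 listed genes for precursor supply, 6 were below the median gene in each table. Those below it in both, named after the values were seen, were UAP1, PAPSS2, SLC35B2, SLC26A2 and BPNT2. UAP1, which makes UDP-N-acetylhexosamines, was lowest at -1.31 in complemented and -2.04 in control lentivirus cells. By RNA per kb BPNT2, a Golgi nucleotide phosphatase, was highest at 1549 and 1380.5, and the sulfate transporter SLC26A2 lowest at 304 and 242.

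Proteoglycan core proteins had medians of 0.25 in complemented and 0.24 in control lentivirus cells over 11 listed genes, above those of the members. SDC4, a syndecan that carries heparan sulfate, had 1.15 and 1.53, and AGRN, the heparan sulfate proteoglycan agrin, had -1.48 and -1.40. These values were not matched for coding length. CD44, which can carry glycosaminoglycan chains, was the one whose RNA level per kb was nearest to that of CHPF, at 6400 in complemented and 5133 in control lentivirus cells, but it had 0.48 and 0.66 in footprints per RNA. The proteoglycan CSPG4 had the lowest RNA level of the group, at 176 and 101 per kb.

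Lysosomal and extracellular enzymes that break the chains down had medians of 0.07 over 12 genes in complemented cells and -0.03 over 14 in control lentivirus cells. IDS, iduronate-2-sulfatase, had -3.13 and -2.86, lower than all but 0.336% and 1.02% of genes. SGSH, a sulfatase of heparan degradation, had the lowest RNA level of these genes in control lentivirus cells, at 124 per kb.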

How the data were processed

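Footprints and RNA of HCT-116 degron cells were sequenced in 8 groups of 2 libraries. Adapters were trimmed by the authors, UMIs collapsed, and reads on rRNA, snoRNA, tRNA and miRNA discarded. The remaining reads were mapped to hg38 (submitters' processing notes: cutadapt, Bowtie2, STAR 2.6.0a), and those above 24 nt were counted over coding sequences with Ribo-seQC. For the annotation and DESeq2, versions were not given in the sources used here. Each value deposited by the authors is the DESeq2 base mean, a mean of counts divided by size factors, 1 pooled value per gene, assay and table. The tables give no total counts per library, so the depth behind each value is unknown from them; the read totals per library that the study lists hold no values per gene and were not used here. The tables also hold the authors' fold changes, adjusted p-values and classes for RNA, footprints and translation efficiency, and a base mean over both assays together; none were used.

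Footprints per RNA were computed without a pseudocount. Coding lengths and 5′ UTRs are from GENCODE v44 canonical transcripts (99.9% of genes in either table matched; a GC content needed at least 10 nt), of the build the authors used. Neighbouring genes in footprint level numbered 500. A robust SD is the scaled median absolute deviation. Calculations used Python 3.11.15 with pandas 2.3.3 and were tested on simulated data. No test was made, as the tables hold 1 pooled value per gene and assay. All 10 members are named, with the highest and the lowest genes of each pathway list by footprints per RNA or RNA per kb in control lentivirus cells. Some of these list genes are not reported here. Members and lists were chosen with earlier results of these data known.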

Additional observations from a re-analysis of the deposited data

How the results depend on the processing

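No paired analysis was possible because the tables hold 1 pooled mean per gene and assay, and for the same reason no replicate could be left out. Of 50 recomputed values, 28 moved by less than the spread between the tables (for levels, the counting interval of the share). These include values that could not move, since every gene in complemented cells already has base means above 20. Median footprints per RNA of the chondroitin enzymes were -1.49 in complemented cells (CHPF and CHSY1) and -1.21 in control lentivirus cells (CHPF and CHPF2). Each is the midpoint of 2 enzymes, and the pairs differ. They were -1.07 and -2.06 with base means above 100, which leaves CHPF alone. In control lentivirus cells base means above 20 also leave CHPF alone, at -1.66. The median was -0.86 there within deciles of coding length. In complemented cells it was -1.03 within RNA deciles and -0.83 from summed base means. For the heparan enzymes the medians were -0.67 over 2 enzymes in complemented cells and -2.22 over 4 in control lentivirus cells. In control lentivirus cells the value was -0.10 with base means above 20, which drops EXT1, NDST1 and EXTL3 and leaves EXT2, -1.89 within RNA deciles, -1.63 within deciles of coding length and -1.27 from summed base means, and in complemented cells it was -0.26 within deciles of coding length. The linker median in control lentivirus cells was -0.21, and changed sign to 0.028 within RNA deciles and 0.10 within deciles of coding length. With base means above 100 no heparan or linker enzyme was left. The pseudocount of 1 and the other centring of the difference between tables kept every value within that spread.

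The median, over the enzymes of a group, of the share of genes with a lower RNA level depended on length. Not divided by length it was 86.3%, 68.9% and 29.3% for chondroitin, heparan and linker enzymes in complemented cells, where per kb it was 75.5%, 47.5% and 43.0%, and 63.1%, 73.2% and 31.97% in control lentivirus cells, where per kb it was 53.8%, 53.6% and 43.0%. With base means above 20 it was 95.2%, 47.6% and 29.0% per kb in control lentivirus cells. That limit left CHPF alone, EXT2 alone, and XYLT2 with B4GALT7. Without it the chondroitin values are midpoints of 2 enzymes, and the pairs differ. Per kb the shares were 97.3% for CHPF and 53.8% for CHSY1 in complemented cells. In control lentivirus cells they were 96.4% for CHPF and 11.2% for CHPF2. Footprint depth limits the low members most. These are EXT1, NDST1 and CHPF2 in control lentivirus cells and CHSY1 in complemented cells, which stand just above the smallest value listed.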
